A study of Macaca mulatta with 12 samples.

Results

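The TRBV10 family is a set of 3 variable (V) genes of the T cell receptor beta chain (TRB), TRBV10-1, TRBV10-2 and TRBV10-3, followed here in the blood of rhesus macaques (Macaca mulatta). A clone belonged to the family when the first V gene listed for it in the clone table was one of these. The family was 3 of the 61 V genes named in 12 libraries and held 7693 of 218326 clonotypes, a clonotype being a CDR3 nucleotide sequence found in a library. Of these, 7678 came from the 8 libraries of animals infused with apoptotic donor leukocytes (ADLs), donor white cells treated with the cross-linker ethylcarbodiimide, and 15 came from 4 baseline libraries. TRBV10-1 and TRBV10-3 carry the Ensembl identifiers ENSMMUG00000047473 and ENSMMUG00000055370, and no identifier was matched to TRBV10-2. Chromosome positions of the genes were not used here.

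Amazo, Nebula and Rocket are the animals named on the post-infusion libraries. Samples were drawn at day -5 (n = 3, 1 per name, 2 days after the first infusion), day -4 (n = 3, 3 days after it), day 0 (Nebula, n = 1) and day +3 (Amazo, n = 1, 2 days after the second infusion). Per the study's text these monkeys were neither diabetic nor transplanted, shared 1 DRB allele with the ADL donor and were under a transient course of immunosuppression, so every post-infusion library shares that treatment, and no library from an animal given the drugs without ADLs was compared here. The baseline libraries carry other labels and are called baseline 1 to 4. Peripheral blood mononuclear cells were the source throughout, and a share of receptor transcripts cannot separate more cells of a clone from more transcript per cell.

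Each T cell builds its beta chain gene by joining a V, a diversity (D) and a joining (J) segment. Nucleotides are trimmed from the segment ends and others are added between them, and the junction encodes CDR3, the loop that contacts the peptide held by an MHC molecule. The V segment also gives CDR1 and CDR2, so clones with the same V gene share those loops and differ mainly at CDR3. A joint is productive when it keeps the reading frame and carries no stop codon.

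Post-infusion libraries held 42695 to 556954 counts (Nebula day -4 the fewest) in 17061 to 36038 clonotypes, and baseline libraries 63 to 74 counts in 30 to 49 clonotypes. Labels and repertoires did not go together in every case. By the Morisita-Horn index over all clonotypes, which runs from 0 for no shared clonotype to 1 for the same clonotypes at the same shares, the libraries labelled Amazo day -5, Amazo day +3, Rocket day -5 and Rocket day -4 resembled each other (0.896 to 0.977 over 6 pairs). The 3 Nebula libraries also resembled each other (0.765 to 0.903), and the other 19 pairs did not exceed 0.0116. The library labelled Amazo day -4 thus stood apart from the other libraries of its name, and the 8 libraries held 3 repertoires. Since the 3 day -4 libraries held 3 different ones, comparisons of TRBV10 with other V genes were made there. Nothing in the labels separates biological from technical replicates beyond the animal name, so p-values of comparisons over several libraries measure the spread between these libraries.

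The untrimmed V ends of the members differed at the start of CDR3. The 16 bases below are the untrimmed 3′ ends of the V segments, read from the clonotypes in which no V base had been removed, and the bases that differ between the genes are in capitals.
TRBV10-1: tgCgccagcagtgaGt
TRBV10-2: tgTgccagcagtgaGt
TRBV10-3: tgTgccagcagtgaAt
Counted from base 1 of the CDR3, TRBV10-1 and TRBV10-2 differed by C3T, TRBV10-2 and TRBV10-3 by G15A, and TRBV10-1 and TRBV10-3 by both. A V part trimmed to before base 15 does not show the base that separates TRBV10-2 from TRBV10-3. Productive clonotypes kept on average 11.9 to 12.4 V bases for TRBV10-2 and 12.2 to 13.2 for TRBV10-3 over the post-infusion libraries. These ends were the ones carried by 306 of 313 untrimmed TRBV10-1 clonotypes, 286 of 300 of TRBV10-2 and 121 of 128 of TRBV10-3. Where the V part reached base 15, A was found in 99.1% of 330 TRBV10-3 clonotypes and G in 97.5% of 692 TRBV10-2 clonotypes. All these clonotypes were picked by their assigned gene and aligned V end. The shares therefore describe the ends and do not test the assignment. After infusion no count of the family came from a clone with a tied best V hit, and at most 0.0186% of its counts in a library came from a clone with several V hits, against 6.57% to 13.7% for other V genes. The fifth codon of each end, gag or gaa, encodes glutamate.

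TRBV10 was a minor family in every post-infusion library, and its share of counts was highest in the 3 Nebula libraries. At day -5 the family took 2.40% of the counts in Amazo, 3.78% in Nebula and 1.89% in Rocket. Its shares at day -4 were 2.82%, 3.73% and 2.26% in the same order, with 3.70% at day 0 (Nebula) and 2.14% at day +3 (Amazo). In these 3 libraries the 95% Wilson intervals overlapped (3.73% to 3.84%, 3.55% to 3.91% and 3.63% to 3.77%). Below them came Amazo day -4, Amazo day -5, Rocket day -4, Amazo day +3 and Rocket day -5, whose intervals did not overlap. PCR copies are not independent molecules, so these and all later intervals cover counting error only. In clonotypes, where each sequence is counted once, the family was more even, with 3.27% to 3.80% of a library. There Nebula was not highest, with 3.28% at day -5, 3.41% at day -4 and 3.36% at day 0. Amazo day -5 (3.70%), Rocket day -5 (3.78%), Rocket day -4 (3.80%) and Amazo day +3 (3.51%) were above it, and Amazo day -4 (3.27%) below.

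TRBV10-2 and TRBV10-1 made up most of the family and varied together across libraries, while TRBV10-3 varied less. TRBV10-1 took 0.719%, 1.74% and 0.578% of the counts at day -5 (Amazo, Nebula, Rocket), 1.21%, 1.58% and 0.715% at day -4, 1.51% at day 0 and 0.649% at day +3. For TRBV10-2 the shares were 1.31%, 1.72% and 1.02% at day -5, 1.30%, 1.73% and 1.19% at day -4, 1.85% at day 0 and 1.12% at day +3. TRBV10-3 stayed between 0.291% (Rocket day -5) and 0.410% (Nebula day -4), as the plot of member shares shows. Both larger genes were thus highest in the 3 Nebula libraries, where TRBV10-3 was not set apart. Over the 8 libraries, on the scale log2(% of counts + 0.01), TRBV10-1 and TRBV10-2 had a Pearson r of 0.93, TRBV10-1 and TRBV10-3 of 0.13, and TRBV10-2 and TRBV10-3 of 0.28. These are descriptions of 8 points that come from 3 repertoires.

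**Figure D1:**
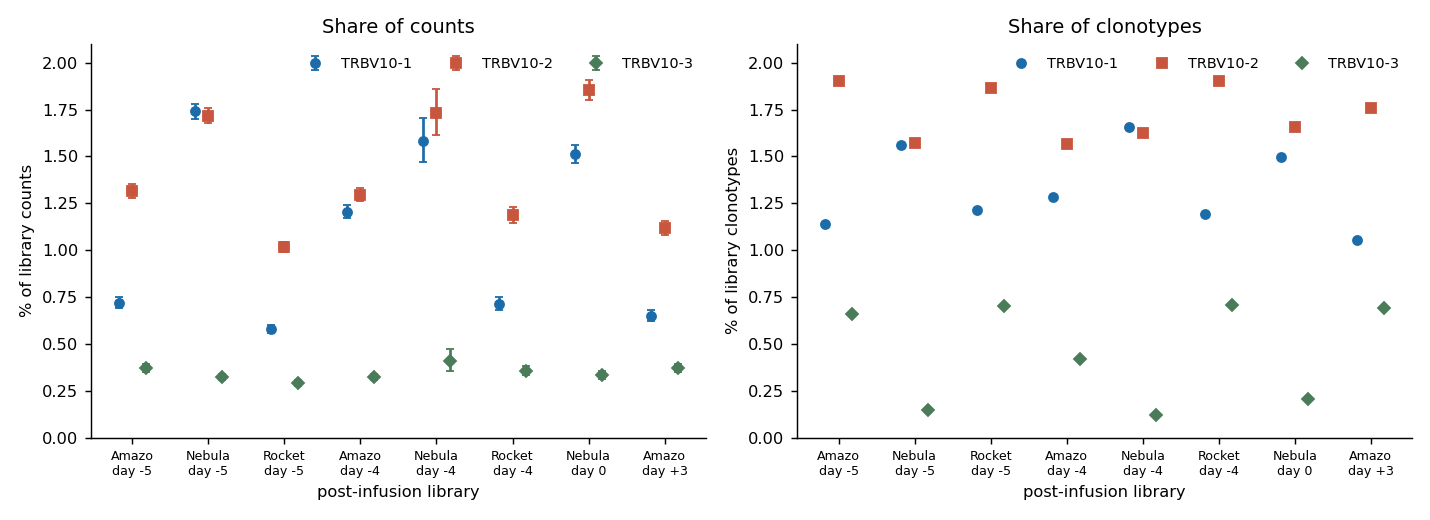
Share of library counts (left, with 95% Wilson intervals) and of library clonotypes (right), in percent, of TRBV10-1, TRBV10-2 and TRBV10-3 in the 8 post-infusion libraries. TRBV10-3 stays between 0.291% and 0.410% of counts, while its share of clonotypes is lowest in the 3 Nebula libraries.

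In number of clonotypes the members differed more. TRBV10-2 held 47.7% to 51.4% of the family's clonotypes, TRBV10-1 30.1% to 48.7% and TRBV10-3 3.56% to 19.8%. TRBV10-3 had 231 clonotypes in Amazo day -5, 120 in Rocket day -5, 109 in Amazo day -4, 254 in Rocket day -4 and 173 in Amazo day +3, but 45, 22 and 63 in Nebula at day -5, day -4 and day 0. All 3 Nebula libraries were thus below the other 5. By number of clonotypes TRBV10-3 ranked between 41 and 51 among the V genes of a library, TRBV10-1 between 21 and 35 and TRBV10-2 between 18 and 25.

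The low clonotype number and the even count share of TRBV10-3 in Nebula met in 1 large clone. A single clonotype took 56.8% of the TRBV10-3 counts at day -5, 70.9% at day -4 and 38.6% at day 0. In the other 5 libraries the largest TRBV10-3 clonotype took 6.06% to 21.2% of the gene's counts, so the values did not overlap. The Nebula libraries carry the same clone and the 8 libraries hold 3 repertoires, so these are not independent values. The largest clonotype of TRBV10-1 took 3.07% to 9.54% of that gene over the 8 libraries, and that of TRBV10-2 took 2.58% to 8.78%. Without its largest clonotype, TRBV10-3 averaged 13.5 counts per clonotype in Nebula day -5, close to 15.1 for TRBV10-1 and 14.4 for TRBV10-2 treated likewise.

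**Figure D2:**
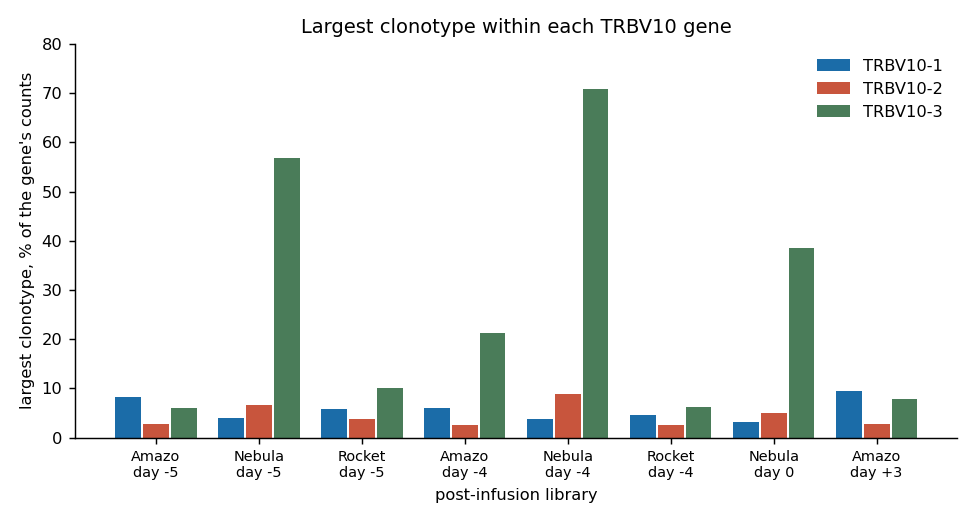
Counts of the largest clonotype of each TRBV10 gene as a percentage of that gene's counts, by post-infusion library. The TRBV10-3 bars of the 3 Nebula libraries reach 38.6% to 70.9%, and no other bar exceeds 21.2%.

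The CDR3 sequences of the largest family clonotype of each library and of each member are shown because they carry the tracking results below. Each is written from its first CDR3 base, with the bases assigned to neither the V nor the J segment in capitals.
TRBV10-3 with TRBJ2-7, largest of the family in the 3 Nebula libraries: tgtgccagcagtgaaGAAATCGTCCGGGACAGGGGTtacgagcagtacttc
TRBV10-2 with TRBJ2-1, largest clonotype of TRBV10-2: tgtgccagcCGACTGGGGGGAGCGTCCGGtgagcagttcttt
TRBV10-1 with TRBJ1-4, largest in Amazo day -4 and largest clonotype of TRBV10-1: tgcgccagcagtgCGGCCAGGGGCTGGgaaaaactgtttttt
TRBV10-1 with TRBJ2-3, largest in Amazo day -5, Rocket day -4 and Amazo day +3: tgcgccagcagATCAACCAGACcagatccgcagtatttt
TRBV10-2 with TRBJ2-4, largest in Rocket day -5: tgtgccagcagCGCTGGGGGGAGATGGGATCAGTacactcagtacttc
The TRBV10-3 clone kept its V segment up to base 15, the A that marks the gene, and no D segment was assigned to the TRBV10-1 clone with TRBJ2-3.

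No TRBV10 clonotype reached 0.5% of a post-infusion library. In Nebula the TRBV10-3 clone with TRBJ2-7 took 0.183% (781 counts) at day -5, 0.290% (124 counts) at day -4 and 0.128% (331 counts) at day 0. The TRBV10-2 clone with TRBJ2-1 took 0.114% (485 counts), 0.152% (65 counts) and 0.0899% (232 counts) on the same days. Both clones were thus highest at day -4, in the library with the fewest counts, and lowest at day 0. Neither was found in the 5 libraries without the Nebula name, where 3 counts, the limit that a count of 0 allows, stand for 0.000539% to 0.00116% of a library. The largest family clone of Amazo day -4, TRBV10-1 with TRBJ1-4, took 0.0734% there (288 counts) and was found in no other library.

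**Figure D3:**
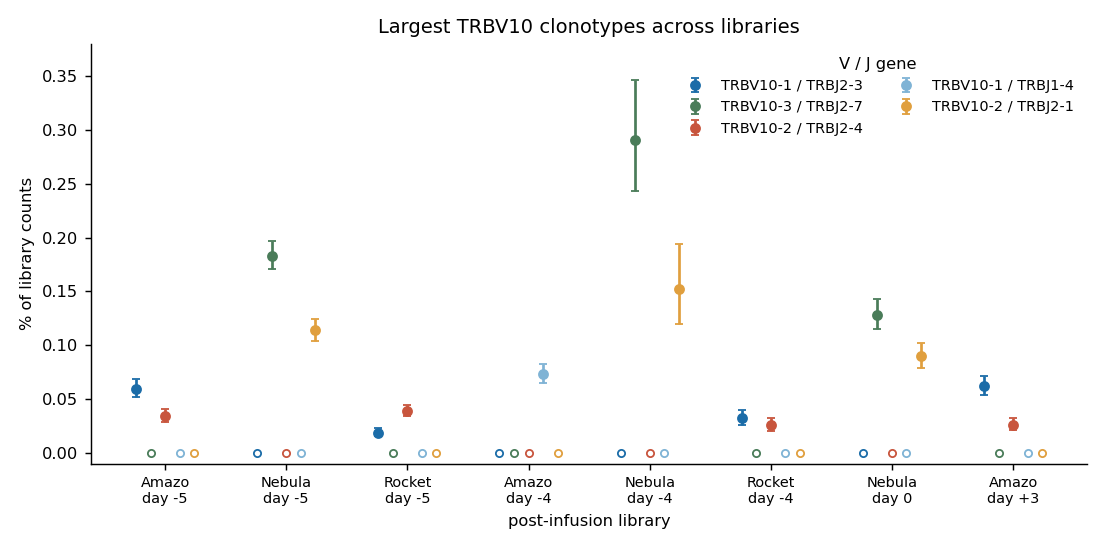
Share of library counts, in percent with 95% Wilson intervals, of 5 TRBV10 clonotypes in each post-infusion library, named by V and J gene. Each was the largest family clonotype of a library or the largest of a member, so larger clonotypes of other ranks are not drawn. Open circles at 0 mark libraries in which a clonotype was not found. The TRBV10-3 clone reaches 0.290% in Nebula day -4, and each clonotype appears within 1 repertoire only.

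The remaining clones were smaller and followed the shared repertoire rather than the name. TRBV10-1 with TRBJ2-3 took 0.0597% in Amazo day -5, 0.0189% in Rocket day -5, 0.0323% in Rocket day -4 and 0.0619% in Amazo day +3. TRBV10-2 with TRBJ2-4 took 0.0342%, 0.0388%, 0.0258% and 0.0260% in the same libraries. Neither clone was found in Amazo day -4 or in Nebula.

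Clone tracking asked whether single clones changed between sampling days, a question put by the study's design of serial samples after ADL infusion. The counts of each clonotype that reached 0.1% in either library of a pair were tested by Fisher's exact test. The size limit used the same counts as the test, so a clonotype could enter through the library in which it was high. A call needed an adjusted p (Benjamini-Hochberg over all clonotypes of the pair) under 0.05 and a share that moved 2-fold or more. Each day and name has a single library, so the test compares libraries and not days, and its p-values cover counting error only, on counts that may include PCR copies. No TRBV10 clonotype was called in any of the 5 pairs, but only the 2 Nebula clones were large enough to be tested. The pairs outside Nebula therefore give no answer for TRBV10 at this limit. In 1 of them, Amazo day -5 to day -4, 100% of 81 clonotypes of other V genes were called. For Nebula day -5 to day -4 the call rate over all V genes was 8% of 25 clonotypes, and for Nebula day -5 to day 0 it was 8.7% of 23. The TRBV10-3 clone was 1.58-fold higher at day -4 than at day -5 (adjusted p = 1.47e-05, Fisher's exact test) and 1.43-fold lower at day 0 than at day -5 (adjusted p = 8.07e-08). The TRBV10-2 clone was 1.34-fold higher at day -4 (adjusted p = 0.0488) and 1.27-fold lower at day 0 (adjusted p = 0.00403). All 4 changes were past the p threshold and under 2-fold, so they count as called where no minimum fold is asked, when 64% and 78.3% of the tested clonotypes of these pairs were called.

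With the size limit lowered to 0.05%, TRBV10 calls appeared in 3 pairs. Between Amazo day -5 and day -4, 3 of 3 TRBV10 clonotypes were called, as were 100% of the 128 clonotypes tested between these libraries of different repertoires. TRBV10-1 with TRBJ2-3 was at least 78.2-fold lower at day -4 and TRBV10-1 with TRBJ1-4 at least 85.2-fold higher, each against a limit of 3 counts. In Nebula 1 of 7 TRBV10 clonotypes was called between day -5 and day -4 (background 14.5%), a TRBV10-1 clonotype that was 2.08-fold lower. Between Nebula day -5 and day 0, 3 of 6 were called (background 26.4%), 2 lower and 1 higher. The higher one, TRBV10-2 with TRBJ2-6, went from 0.0397% to 0.0922%, which was 2.33-fold (adjusted p = 1.74e-16, Fisher's exact test). Of the 2 libraries of this pair, it reached the 0.05% limit at day 0 only, though it was also above it at day -4 (0.0679%). In its own pair, each clonotype called lower in Nebula reached the limit at day -5 only. The limit thus favoured changes in these directions, and the p-values do not allow for that. None was called for Rocket day -5 to day -4 (0 of 0 tested) or for Amazo day -5 to day +3 (0 of 1), where the background was 4.05% and 16%. At the 0.1% limit no TRBV10 clonotype was tested in these pairs, and the background was 1.92% and 10.2%, or 82.7% and 83.7% with no minimum fold.

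Sharing of family clonotypes between libraries followed the same repertoires. Within TRBV10 the Morisita-Horn index was 0.678 to 0.785 for the 3 Nebula pairs and 0.539 to 0.682 for the 6 pairs of the Amazo and Rocket libraries that resembled each other. It did not exceed 0.0146 in the other 19 pairs. Nebula pairs shared 58 to 79 TRBV10 clonotypes, which was 5.66% to 9.39% of either list, beside 4.55% to 8.06% over all V genes. The 6 pairs shared 60 to 102, or 5.41% to 13.0%, beside 4.81% to 10.9% over all V genes. Of 2623 distinct productive TRBV10 clonotypes at day -4, 3 were found in 2 libraries (0.114%) and 0 in all 3. Beside this, 0.173% of the productive clonotypes of other V genes were found in 2 or more.

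V gene usage was compared between day -5 and day -4 to ask whether the repertoire moved between the 2 days. Libraries were paired by name, but the 3 day -5 libraries held only 2 repertoires (Morisita-Horn index 0.896 for Amazo and Rocket), and the Amazo pair joined different ones (0.0116). No member passed the test. With the edgeR quasi-likelihood test and the animal name as block, the log2 change from day -5 to day -4 was 0.22 ± 0.23 (SE) for TRBV10-1 (adjusted p = 0.674), -0.01 ± 0.18 for TRBV10-2 (adjusted p = 0.974) and 0.06 ± 0.31 for TRBV10-3 (adjusted p = 0.932). Over all V genes 0% of 57 were called, and 0 had an unadjusted p under 0.05. DESeq2 called 0 and had 5 at an unadjusted p under 0.05. Without the Amazo libraries edgeR called 4 V genes and without the Nebula libraries 1, TRBV5-9, and no member was among them.

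The summed family share moved by less than the spread between libraries. The mean over the 3 names went from 2.69% ± 0.979 (SD, n = 3 libraries of 2 repertoires) at day -5 to 2.94% ± 0.741 one day later, higher in 2 of 3 names. The mean difference was 0.245 percentage points (exact two-sided sign-flip permutation test, p = 0.5, adjusted p = 0.625 over 5 exact tests, where 3 pairs cannot go below 0.25). With each clonotype counted once the difference was -0.0973 points.

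The V genes whose shares were most like those of the family over the 8 libraries were TRBV4-1 (Pearson r = 0.992), TRBV2-2 (0.976) and TRBV6-3 (0.972), from 50 V genes with at least 10 counts in each library. TRBV4-1 ranged from 0.463% to 1.37% of counts, TRBV2-2 from 0.875% to 2.24% and TRBV6-3 from 1.72% to 7.05%. Of the 50, 9 had an r above 0.9, and the 8 points share 3 repertoires.

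At baseline the family's share was higher, in libraries of another kind. The 4 libraries held 7 of 73, 7 of 63, 4 of 74 and 5 of 70 counts of TRBV10, which were 9.59%, 11.1%, 5.41% and 7.14%. Their mean of 8.31% ± 2.54 (SD, n = 4) was above the 2.94% ± 0.741 (SD, n = 3) of day -4, and the ranges did not overlap (exact two-sided permutation test, p = 0.0571, the smallest that 4 against 3 allows, adjusted p = 0.286). TRBV10-1 had 13 of the 23 family counts and the others 5 each. Taken singly, each member had ranges that overlapped those of day -4 (exact permutation p = 0.229 for TRBV10-1, 0.8 for TRBV10-2 and 0.571 for TRBV10-3). The score of the best V hit was 90 to 455 in the baseline clonotypes. Its median for the family was 1176 to 1201 in the post-infusion libraries. Of the 15 baseline clonotypes 13 were productive, 2 had several V hits, and 0 were found in a post-infusion library. A single count stood for 1.35% to 1.59% of these libraries, and baseline and post-infusion libraries differ in kind throughout, so sampling time and library kind cannot be told apart.

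Productive CDR3s of the TRBV10 family as a whole were shorter on average than those of other V genes in 8 of 8 libraries. By member this held in 8 of 8 libraries for TRBV10-1 and TRBV10-2 and in 7 of 8 for TRBV10-3, which was longer in Amazo day -4 (14.77 against 14.45 amino acids). At day -4 the mean length of TRBV10 clonotypes was 14.19 amino acids in Amazo, 14.05 in Nebula and 14.07 in Rocket, and that of other V genes was 14.45, 14.40 and 14.49. The means were 14.10 ± 0.079 and 14.45 ± 0.043 (SD, n = 3), a difference of -0.34 (exact sign-flip permutation test, p = 0.25, the smallest possible, adjusted p = 0.625), and -0.17 when clonotypes were weighted by their counts. Over the 8 libraries the difference ran from -0.60 to -0.26 (mean -0.40, exact sign-flip permutation p = 0.00781, the smallest possible, over libraries that hold 3 repertoires). At day -4, 19.1%, 19.0% and 22.0% of TRBV10 clonotypes had 13 residues, against 16.5%, 16.2% and 16.01% of the others, and at 16 residues TRBV10 was the lower in all 3 libraries. Short CDR3s were not particular to the family: among 48 V genes with at least 20 productive clonotypes in each day -4 library, TRBV10-1 was number 6 from the shortest, TRBV10-2 number 9 and TRBV10-3 number 20. Between days, TRBV10 CDR3s averaged 14.06 ± 0.066 residues (day -5) and 14.10 ± 0.079 (day -4, SD over 3 libraries each, exact sign-flip permutation p = 0.5, adjusted p = 0.625). The difference was 0.04, higher in 2 of 3 names, and 0.114 and higher in 3 of 3 when weighted by counts (exact permutation p = 0.25, the smallest possible).

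**Figure D4:**
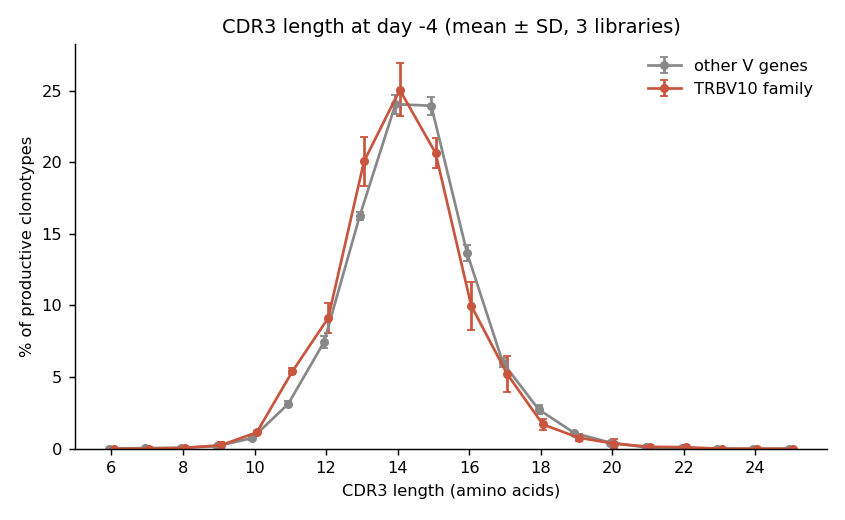
Distribution of CDR3 length, in amino acids, among productive clonotypes of TRBV10 and of other V genes at day -4, as the mean percentage ± SD of 3 libraries. The TRBV10 curve lies above the other at 13 residues and below it at 15 and 16.

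The junctions of the family differed from those of other V genes in several measures that were looked at after their values were known and carry no test. TRBV10 clonotypes had lost 3.60 to 4.01 bases of the V end on average, against 2.65 to 2.92 for other V genes, and the difference was 0.950 to 1.22 bases over the 8 libraries. The loss was not particular to the family. Among the 48 V genes at day -4 it was highest in TRBV19 (4.18). TRBV10-2 was number 2 (4.02), TRBV6-2 number 3 (3.83), TRBV10-1 number 4 (3.79) and TRBV10-3 number 18 (3.33). An untrimmed V end was kept by 9.23% to 13.6% of TRBV10 clonotypes and 21.2% to 24.8% of the others. Bases assigned to neither V nor J were fewer in 7 of 8 libraries, by up to 1.07 bases. Glutamate stood at residue 5, where the V ends printed above encode it, in 23.9% to 33.8% of productive TRBV10 clonotypes and in 5.40% to 6.71% of the others. By this share TRBV10-3 was number 1 and TRBV10-1 number 2 of the 48 V genes at day -4 (42.9% and 31.3% on average), while TRBV10-2 was number 9 (25.8%). TRBV10-3 was above both other members in 8 of 8 libraries. Glutamate at residue 5 was not particular to the family: TRBV2-1 (31.2%), TRBV25-1 (30.9%) and TRBV2-2 (26.4%) were among the V genes above TRBV10-2 at day -4.

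The productive share of TRBV10 clonotypes did not pass a test against that of other V genes. At day -4 they were 93.5%, 92.9% and 91.8% of TRBV10 clonotypes in Amazo, Nebula and Rocket, and 91.5%, 94.7% and 92.6% of the others. The means of 92.7% ± 0.864 and 92.9% ± 1.64 (SD, n = 3) differed by -0.170 points (exact sign-flip permutation p = 1, adjusted p = 1, lower for TRBV10 in 2 of 3 libraries). Weighted by counts, the shares were 93.6% ± 0.994 and 95.2% ± 0.882 (SD, n = 3), a difference of -1.60 points (exact permutation p = 0.5). Over all 8 libraries, with each clonotype counted once, the difference was -0.758 points, lower for TRBV10 in 6 of 8 (exact permutation p = 0.164). The lowest share, 88.1%, was in Rocket day -5, where other V genes were also lowest with 88.9%. Out-of-frame joints were 5.29% to 9.92% of TRBV10 clonotypes and in-frame stop codons 0.162% to 2.01%. For TRBV10-3 in Nebula day -4, 22 of 22 clonotypes were productive.

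J pairing was compared by the number of clonotypes per J gene, TRBV10 against the other V genes of the same day -4 library. J genes lie in 2 clusters, TRBJ1 and TRBJ2, each downstream of its own D gene. TRBJ2-7 was the most used J gene of the family in 6 of 8 libraries, with 10.4% to 13.7% of clonotypes beside 11.02% to 11.8% among other V genes. By member, TRBJ2-7 led in 5 of 8 libraries for TRBV10-1 and in 3 for TRBV10-2, and no J gene led in more than 2 for TRBV10-3. With edgeR 0% of 13 J genes were called at an adjusted p below 0.05, and 3 had an unadjusted p under 0.05, all named here after their values were seen. TRBJ1-4 was used by 7.88%, 7.77% and 5.26% of TRBV10 clonotypes (Amazo, Nebula, Rocket) and 9.92%, 9.97% and 8.51% of the others, a log2 ratio of -0.48 ± 0.10 (SE, adjusted p = 0.132). TRBJ2-6 had a log2 ratio of 0.34 ± 0.087 (adjusted p = 0.132) and TRBJ1-3 of -0.26 ± 0.083 (adjusted p = 0.144). With productive clonotypes only, 7.69% of 13 were called, which was TRBJ1-4 alone (-0.54, adjusted p = 0.0101, edgeR). With all 8 libraries, which hold 3 repertoires, 4 of 13 J genes (30.8%) were called by edgeR, TRBJ1-3 and TRBJ1-4 lower and TRBJ2-3 and TRBJ2-6 higher for TRBV10.

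Of the members, TRBV10-2 had the lowest share of TRBJ1 genes. Among its productive clonotypes 22.3%, 30.8% and 29.0% carried a TRBJ1 gene at day -5 (Amazo, Nebula, Rocket), 27.1%, 28.6% and 25.6% at day -4, 26.5% at day 0 and 24.6% at day +3. These values were below those of TRBV10-1, TRBV10-3 and other V genes in 8 of 8 libraries, by 5.92 to 15.8 points for other V genes and by 6.67 to 18.02 points for TRBV10-1. TRBV10-1 was below other V genes in 4 of 8 libraries and TRBV10-3 in 2 of 8. Averaged over day -4, TRBV10-2 was number 4 from the lowest of 48 V genes (27.1%), TRBV10-1 number 29 (38.8%) and TRBV10-3 number 40 (45.2%). The comparison of members was made after the values were seen and was not tested.

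**Figure D5:**
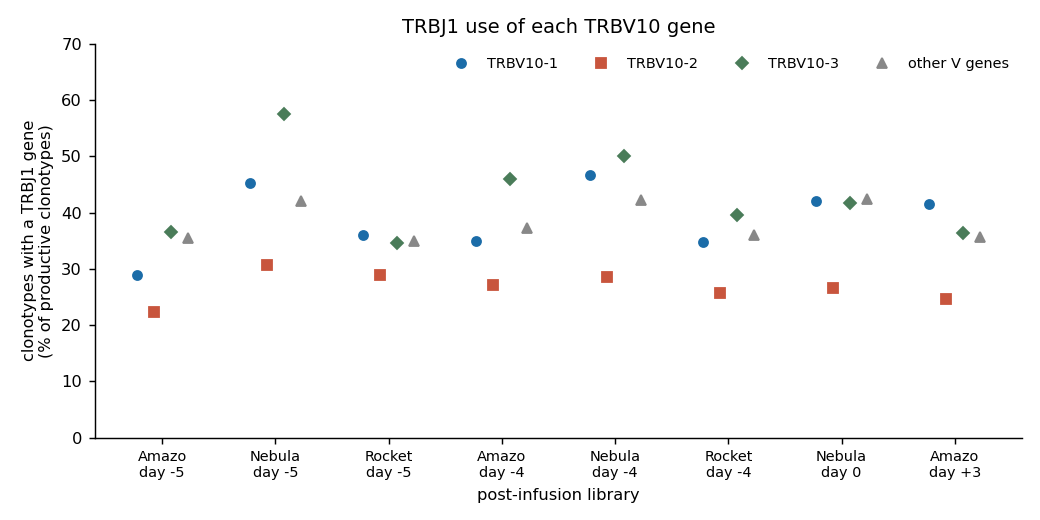
Percentage of productive clonotypes that carry a TRBJ1 gene, for TRBV10-1, TRBV10-2, TRBV10-3 and all other V genes, in each post-infusion library. TRBV10-2 is the lowest of the 4 in every library, at 22.3% to 30.8%.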

How the data were processed

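TRB transcripts of 12 rhesus blood mononuclear cell libraries were analysed. Per the study's text, template-switch cDNA came from the polyadenylated fraction, VDJ amplicons were read on a MiSeq as paired ends, reads were cleaned with Trimmomatic, and clones were assembled with MiXCR against known rhesus TRB segments; versions and the genome build are not given in the sources used here. The authors deposited 1 clone table per library, with a raw whole-number count per clone. Dividing it by the table total gave the deposited fraction of each clone. The methods describe merging of reads by molecular barcode and a clone threshold of 0.5%, but the deposited post-infusion tables hold clones far below it, so the counts were taken unchanged and may include PCR copies. The series text places infusions on days -7 and 1, and a legend of the study gives another day for the second.

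A clonotype was a CDR3 nucleotide sequence, and V, D and J genes were the first hits. Groups came from the labels. V usage (summed counts, at least 10 in at least 3 libraries, TMM) and J pairing (clonotypes, total scaling, library as block) were tested with edgeR 4.0.16 in R 4.3.3 with Benjamini-Hochberg adjustment. Printed standard errors are the log2 change divided by the root of the F statistic. Single values were tested by exact permutation, and clonotypes by Fisher's exact test. Python 3.11.15, pandas 2.3.3 and scipy 1.17.1 were used. The V usage test and Fisher's exact test were tried on simulated data, and the J pairing test was tried there with TMM in place of total scaling. Animal names pair the libraries per the labels, and deviations from group means correlated at -0.107 for Amazo, 0.857 for Nebula and 0.932 for Rocket. Alternatives changed the scaling, filters, counting, block, tool (DESeq2 1.42.0), clone definition and the libraries used.

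Named items were the 3 members, the 3 V genes most like the family, J genes past the test and the most used one, and the largest clonotypes per library and member. The members, lists and rules were chosen with earlier results of these data known. Depth sets precision: 1 count was 0.00018% to 0.00234% of a post-infusion library.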

Additional observations from a re-analysis of the deposited data

How the results depend on the processing

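Of 164 alternative values over 24 results, 13 reversed and 14 moved or gained a call. The other 137 kept their direction and their side of the threshold or stayed within 1.5 times the count. The cause of each change was not tested. Many of the 137 could not have crossed the threshold. Exact tests on 3 pairs could not go below p = 0.25, and those of day -4 against baseline not below 0.0571. Between Rocket day -5 and day -4, 0 TRBV10 clonotypes were tested at any setting. The count of 137 is therefore no measure of robustness. With each clonotype counted once, the day -4 minus day -5 difference was -0.0973 points for the family, -0.0823 for TRBV10-2 and -0.0882 for TRBV10-3, and the edgeR log2 change of TRBV10-3 was -0.25. Total-count scaling gave 0.070 for TRBV10-2. Counted by deposited counts, the log2 ratio of TRBJ1-3 was 0.15.

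Leaving out each name in turn gave 0 to 4 called V genes, 0 called J genes, a family difference of 0.157 to 0.395 points, -0.01 to 0.31 points for TRBV10-1 (-0.0104 without Amazo), -0.0023 to 0.091 for TRBV10-2 (-0.0023 without Rocket), log2 changes of -0.048 to 0.041 for TRBV10-2 (0.041 without Amazo, 0.026 without Nebula) and -0.023 to 0.24 for TRBV10-3 (-0.023 without Nebula). The difference in productive share ran from -1.29 to 0.648 points (0.648 without Nebula, 0.132 without Rocket). That in CDR3 length ran from -0.39 to -0.31 amino acids, and the change in length between days from 0.0085 to 0.092. The difference of day -4 from baseline ran from -5.77 to -5.04 points when a day -4 library was left out. It ran from -6.35 to -4.44 points when a baseline library was left out.

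J genes called were 1 with productive clonotypes only (TRBJ1-4, -0.54) and 4 with all 8 libraries (TRBJ1-3 -0.28, TRBJ1-4 -0.45, TRBJ2-3 0.21, TRBJ2-6 0.34), where the CDR3 length difference was -0.395 with p = 0.00781 (exact permutation). Leaving TRBV23-1, the V gene with the most clonotypes, out of the comparison, which was chosen after seeing the data, gave -0.32. Weighting by counts gave -0.17 for that difference, 0.114 for the change in length between days and -1.60 points for the productive share. TRBV10 clonotypes called at 0.05% were 3 for Amazo day -5 to day -4, 1 for Nebula day -5 to day -4 and 3 for Nebula day -5 to day 0, and with no minimum fold 2 in each of the Nebula pairs. Without the replicate block edgeR called 0 V genes, so the pairing changed no V gene call. Exact permutation p without the block was 0.8 for the family share and 0.6 for the change in length. These tests could not go below 0.1 without the block or 0.25 with it. They therefore cannot show whether the pairing matters for a call. At 42695 counts, Nebula day -4 limited what could be seen of small clones.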
